A study of Mus musculus with 2 samples.

Results

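A set of 6 genes with a reported part in cross-presentation, Clec9a, Wdfy4, Apol7c, Rab43, Sec22b and Cybb, was followed through the cell classes of the mouse spleen. They were taken as a named list, chosen with earlier results of these data known, and were 6 of the 27032 genes measured. Single-cell transcriptomes of spleen cells enriched for CD11c, an integrin of dendritic cells (DCs), were available for 2 samples of wild-type mice, WT1 (sample 1) and WT2 (sample 2). Both samples had the same genotype and tissue, with no treatment given in the labels, so that every comparison was made between cell classes and not between conditions. The study used adult mice of both sexes on the C57BL/6J background, and how many made up a sample is not known.

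Cross-presentation is the display of peptides from engulfed, exogenous antigen on MHC class I, and it allows DCs to prime CD8+ T cells against antigens that they do not make themselves. The conventional DC type 1 (cDC1), marked by the chemokine receptor XCR1, is known for this function in the spleen. The antigen has to be taken up, kept from complete degradation in the phagosome, and brought either to the cytosol or to a compartment with loaded MHC class I. The 6 genes cover these steps. Clec9a encodes DNGR-1, a receptor for actin filaments exposed by dead cells. Wdfy4 encodes a BEACH domain protein needed by cDC1s for cross-presentation of cell-associated antigen. Apol7c encodes an apolipoprotein L that can permeabilise phagosomes. Rab43 encodes a small GTPase of vesicle transport, Sec22b a SNARE of the ER-Golgi route, and Cybb the catalytic subunit (gp91phox) of the phagosomal NADPH oxidase NOX2.

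Cells were placed in a class by the unique molecular identifiers (UMIs) of a few marker genes, none of which was among the 6 genes, and the first class that a cell met was kept. A cell with at least 2 UMIs of Xcr1 was a cDC1. The classes held 793 and 715 cDC1s in samples 1 and 2, 555 and 459 DCIR2 cDC2s (marked by Clec4a4), 497 and 415 CLEC10A cDC2s, 147 and 187 mature DCs (Ccr7 and Fscn1), 358 and 161 macrophages, 14 and 21 plasmacytoid DCs (pDCs), 74 and 198 B cells, 49 and 188 T cells and 40 and 35 NK cells. No class was met by 781 and 706 cells. The total depth was 46953398 and 43137746 UMIs, and no cell barcode was shared. The median depth per cell was 20207 and 21750 UMIs in cDC1s, 12145 and 12069 in DCIR2 cDC2s, and 10059 and 10682 in mature DCs. Of 10 other cDC1 markers, 9 were over 2-fold higher in cDC1s than in all other cells in both samples, among them Irf8 at 1827 and 1907 UMIs per 1000000 UMIs of the class (CPM) against 167 and 146. The 2 cDC2 classes were less distinct, with 4 of 7 and 3 of 7 markers over 2-fold, whereas mature DCs, macrophages and pDCs passed with 8 of 8. The rules of more than 1 class were met by 61 and 64 cDC1s, 206 and 156 DCIR2 cDC2s and 23 of the 35 pDCs. They were also met by 34 and 46 mature DCs, 34 and 20 macrophages, 3 and 4 B cells, 1 and 12 T cells and 4 and 3 NK cells. CLEC10A cDC2s came last in the order, so a cell kept there could meet no other rule. No doublet caller was used.

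In GRCm38, Wdfy4 lies at chr14:32959547-33185508 on the minus strand, Clec9a at chr6:129408862-129424763 on the plus strand, and Apol7c at chr15:77524852-77533316 on the minus strand. Rab43 lies at chr6:87788853-87812164 (minus), Sec22b at chr3:97901190-97923276 (plus) and Cybb at chrX:9435252-9487771 (minus). Sequence shared with other genes limits the certainty of 2 of them. Of the 31-base stretches in its transcripts, Rab43 shares 74.8% with Gm45140, a gene annotated on the same strand over nearly its whole length, and the latter was counted at only 0.90 and 1.23 CPM in cDC1s. Apol7c shares 38.1% of its stretches with 6 genes, mostly Gm8221 (24.8%) and Apol7a (18.6%), so that part of its reads could be split among copies. Clec9a shares 4.63% with Clec1b and Sec22b 3.48% with other genes, and Wdfy4 and Cybb share none.

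The 250 bases before the RefSeq start (GRCm38.p6) are shown for the genes whose levels set cDC1s most apart in either direction. They lie at chr6:129408612-129408861 for Clec9a, at chr15:77533316-77533565 for Apol7c and at chrX:9469325-9469574 for Cybb, the last inside the span of the annotated gene but outside its exons. Each is written 5′ to 3′ on the strand of its gene, with matches to 4 motifs in capitals.
Clec9a: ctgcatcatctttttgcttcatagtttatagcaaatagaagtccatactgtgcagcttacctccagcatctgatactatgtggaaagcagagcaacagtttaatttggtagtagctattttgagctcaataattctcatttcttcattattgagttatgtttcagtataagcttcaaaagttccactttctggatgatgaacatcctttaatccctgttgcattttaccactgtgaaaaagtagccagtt
Apol7c: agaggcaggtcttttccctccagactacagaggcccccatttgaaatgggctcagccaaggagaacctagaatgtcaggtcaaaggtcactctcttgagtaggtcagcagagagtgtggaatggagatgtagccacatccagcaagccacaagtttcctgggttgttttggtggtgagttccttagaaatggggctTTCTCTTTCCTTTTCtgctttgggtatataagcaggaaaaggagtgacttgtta
Cybb: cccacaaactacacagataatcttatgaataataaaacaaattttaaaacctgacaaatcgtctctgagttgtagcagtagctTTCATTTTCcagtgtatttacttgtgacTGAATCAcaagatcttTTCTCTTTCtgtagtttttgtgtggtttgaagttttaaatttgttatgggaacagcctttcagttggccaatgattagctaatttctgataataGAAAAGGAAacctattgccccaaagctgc
The motifs were searched on both strands as TGANTCA (AP-1), GGAANNGAA (ETS-IRF composite), GAAANNGAA (interferon response) and GAGGAAG (PU.1). No match was found before Clec9a. The Apol7c window held 2 overlapping interferon response matches, 54 to 46 and 48 to 40 bases before the start. The Cybb window held 3 interferon response matches, 167 to 159, 123 to 115 and 29 to 21 bases before the start, and 1 AP-1 match at 139 to 133. Among 32851 promoter windows of this length, 7.13% held the interferon response letters, 6.75% those of AP-1, 6.99% those of the composite and 10.6% those of PU.1. A match describes letters only and is not evidence that a factor binds there.

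Clec9a, the uptake receptor, was highest in cDC1s, with a mean 5.26-fold above that of the next class. It reached 1431 and 1299 CPM in cDC1s, and 96.5% (95% exact binomial interval 94.9 to 97.6) and 95.9% (94.2 to 97.3) of these cells held at least 1 UMI. Next came the few pDCs with 166 and 353 CPM, CLEC10A cDC2s with 149 and 141, and mature DCs with 113 and 115. DCIR2 cDC2s had 28.1 and 23.6 CPM and B cells 15.6 and 25.3, whose ranges overlapped. No value outside cDC1s came near the class, and the ranges of CLEC10A cDC2s and mature DCs did not overlap either. B, T and NK cells together, taken as cells that lack the gene, held a Clec9a UMI in 17.8% and 12.6% of cells, with medians of 7103 and 6585 UMIs per cell. The shares in DCIR2 cDC2s, 18.9% and 16.6%, were close to this background and were not read as expression. When every cell was thinned to 4000 UMIs, which left out 7 and 8 of the cDC1s as too shallow, 93.6% and 92.7% of cDC1s and 27.4% and 28.8% of CLEC10A cDC2s kept a UMI.

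Wdfy4, the BEACH domain gene, was also highest in cDC1s but was found in every class. Its level was 1526 and 1469.8 CPM in cDC1s, 797 and 747 in DCIR2 cDC2s, and 536 and 552 in CLEC10A cDC2s, with no overlap between these classes. B cells followed with 439 and 489 CPM, mature DCs with 452 and 398 and pDCs with 354 and 424, and the ranges of these neighbours overlapped. Macrophages (241 and 206 CPM) and T cells (200 and 177 CPM) were at the lower end. Virtually every cDC1 contained the transcript, with 99.0% and 99.7% of cells positive and medians of 28 and 30 UMIs per cell. DCIR2 cDC2s were positive in 97.3% and 97.2% of cells with a median of 9 UMIs in both samples, and at 4000 UMIs per cell 97.5% and 97.8% of cDC1s and 88.9% and 88.3% of DCIR2 cDC2s kept one.

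Apol7c, the apolipoprotein L gene, was shared by cDC1s and mature DCs. Mature DCs had 2397 and 2382 CPM and cDC1s 1510.0 and 1135, whereas no other class exceeded macrophages at 104 and 82.4. CLEC10A cDC2s had 41.3 and 59.98 CPM, DCIR2 cDC2s 33.6 and 19.2, and pDCs 5.20 and 6.78, the last from 3 UMIs in all. The 2 samples did not overlap between mature DCs, cDC1s and macrophages. A UMI was found in 60.5% (52.2 to 68.5) and 64.2% (56.8 to 71.0) of mature DCs and in 77.0% (74.0 to 79.9) and 75.9% (72.6 to 79.0) of cDC1s. Mature DCs thus had the higher CPM but the lower share of positive cells. They were also less deeply sequenced, and per cell they held a mean of 27.7 and 28.9 Apol7c UMIs, against 31.7 and 25.8 in cDC1s. The medians were 7 and 5 against 16 and 12. The lymphoid background was 9.20% and 6.89%. After thinning to 4000 UMIs the shares were 58.0% and 56.4% in mature DCs and 68.7% and 65.4% in cDC1s.

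Rab43, the vesicle GTPase, was a low transcript that was still highest in cDC1s. It stood at 19.9 and 20.01 CPM in cDC1s, 11.2 and 13.04 in DCIR2 cDC2s, 12.4 and 11.03 in mature DCs, and 10.2 and 12.46 in CLEC10A cDC2s. The 3 other DC classes overlapped each other, and none overlapped cDC1s. Macrophages had 3.03 and 2.25 CPM and B cells 0 and 3.70. Only 26.5% and 29.1% of cDC1s held a UMI against 2.45% and 3.56% of the lymphoid cells. At 4000 UMIs the shares were 7.57% and 7.43% in cDC1s and 4.29% and 5.04% in DCIR2 cDC2s, near the level of a single UMI, and no order was read from them.

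Sec22b, the ER-Golgi SNARE, was the gene with the flattest profile. Its level was 34.3 and 32.7 CPM in cDC1s, 39.97 and 39.6 in DCIR2 cDC2s, 33.0 and 29.6 in CLEC10A cDC2s, 30.6 and 33.5 in mature DCs and 35.2 and 40.8 in macrophages. T cells had the highest values, 68.4 and 45.0 CPM, and pDCs the lowest and most spread ones, 15.6 and 33.9, from 13 UMIs. The unthinned share of positive cells was higher in cDC1s (42.0% and 43.8%) than in DCIR2 cDC2s (32.1% and 34.2%), but at 4000 UMIs per cell it was 12.4% and 11.9% against 13.6% and 13.5%. The order of the shares was not kept at equal depth.

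Cybb, the catalytic subunit of NOX2, had the reverse pattern. cDC1s had 32.3 and 24.9 CPM, which overlapped with T cells at 25.7 and 36.0. By contrast, pDCs had 1092 and 1272 CPM, CLEC10A cDC2s 844 and 835, macrophages 732 and 745, B cells 604 and 399, DCIR2 cDC2s 452 and 362, and mature DCs 285 and 275. Each of these 6 classes lay above both cDC1 samples. A Cybb UMI was found in 12.9% (10.6 to 15.4) and 13.01% (10.6 to 15.7) of cDC1s, although they were the most deeply sequenced DCs, and in 96.4% and 93.7% of CLEC10A cDC2s and 90.8% and 88.5% of DCIR2 cDC2s. B cells express Cybb themselves, so T cells were the better background for this gene.

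**Figure D1:**
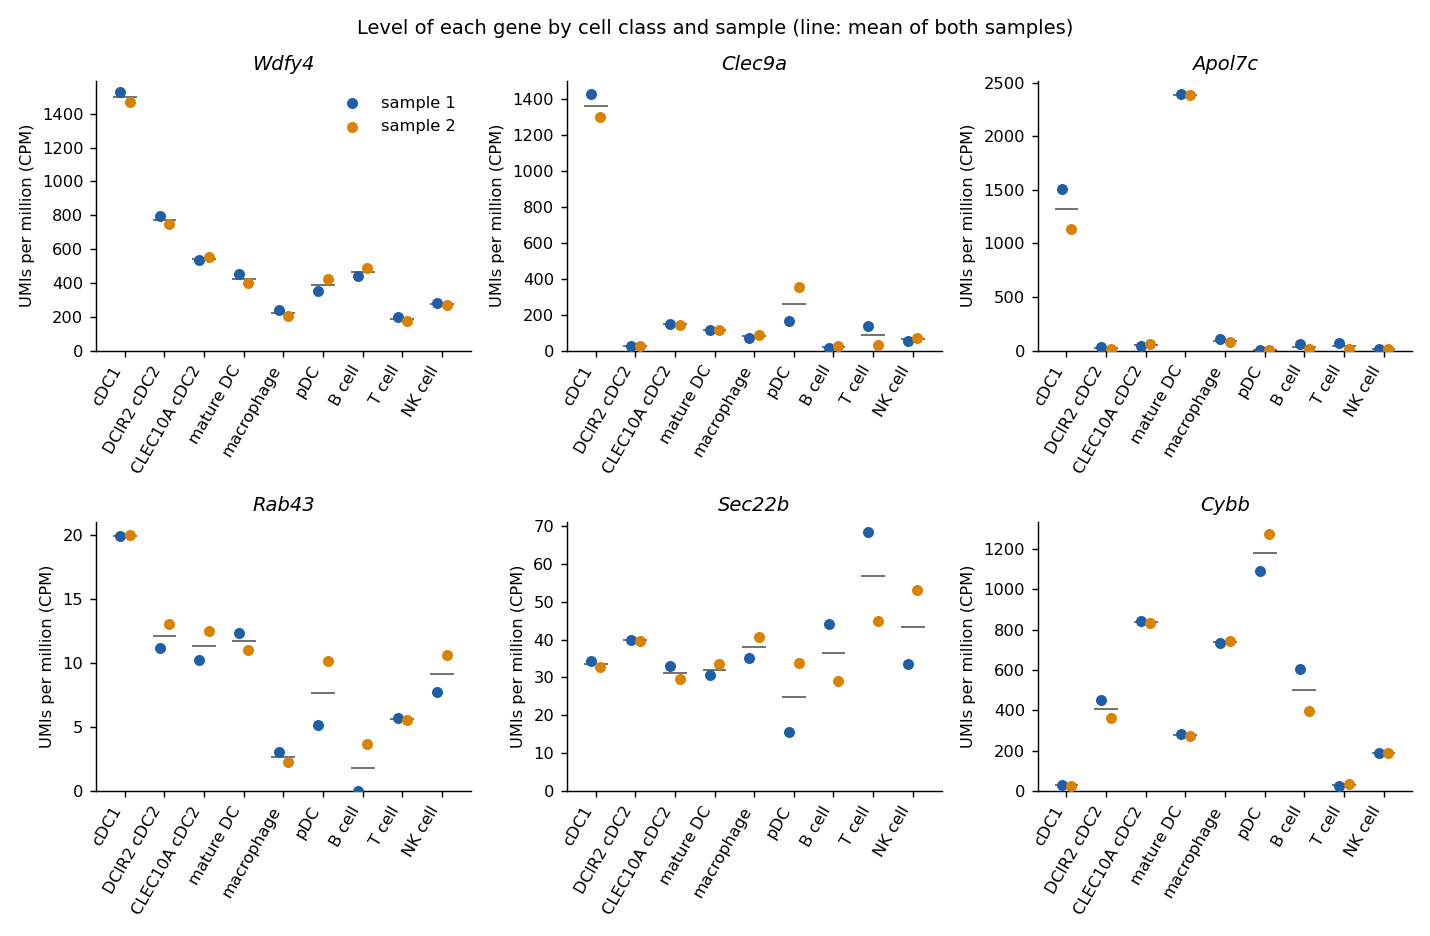
Level of each gene in CPM (y axis, linear, from 0) in 9 cell classes (x axis); each point is 1 sample and the line is the mean of both. Clec9a, Wdfy4 and Rab43 were highest in cDC1s, Apol7c in mature DCs (2397 and 2382 CPM) and then cDC1s, Sec22b differed little, and Cybb in cDC1s (32.3 and 24.9 CPM) was at the level of T cells.

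The comparison of cDC1s with each of 6 other classes asked which of these genes set the class apart, and it was tested on UMI sums per sample and class with edgeR. Against DCIR2 cDC2s, 4 of the 6 genes were higher and 1 was lower, beside 16.1% and 16.6% of the 12209 genes tested. Clec9a was higher by 5.88 ± 0.31 on the log2 scale (SE; adjusted p = 2.1e-11), which is 58.8-fold, and Apol7c by 5.80 ± 0.38 (adjusted p = 2.51e-10), or 55.5-fold. In DCIR2 cDC2s the share of cells with a UMI was near the lymphoid background for both. It was 18.9% and 16.6% for Clec9a and 12.8% and 10.9% for Apol7c, so these 2 fold sizes depend on that floor. Wdfy4 rose by 1.118 ± 0.11 (adjusted p = 9.66e-08), or 2.17-fold, and Rab43 by 0.88 ± 0.25 (adjusted p = 0.00873), or 1.85-fold. Cybb fell by 3.67 ± 0.18 (adjusted p = 9.34e-12), a 12.7-fold lower level. Sec22b was not called (-0.09 ± 0.17, adjusted p = 0.759), and its 95% interval of -0.45 to 0.28 limits any difference to a 0.733-fold to 1.21-fold ratio. The median over all genes was -0.0076.

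The same directions were found against CLEC10A cDC2s, with 4 genes higher and 1 lower (background 14.6% and 15.9%). Apol7c differed by 4.81 ± 0.36, Clec9a by 3.33 ± 0.27, Wdfy4 by 1.57 ± 0.11 and Rab43 by 0.92 ± 0.26 on the log2 scale, and Cybb by -4.77 ± 0.19, which placed it 22nd from the lowest of all genes tested. Sec22b had a difference of 0.20 ± 0.18 (adjusted p = 0.449). Both cDC2 comparisons use the same cDC1 sums and are not independent of each other.

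Against mature DCs, 3 genes were higher and 2 lower (background 21.6% and 20.1%). Clec9a was higher in cDC1s by 3.66 ± 0.28, Wdfy4 by 1.90 ± 0.12 and Rab43 by 0.85 ± 0.30 (adjusted p = 0.0259), while Cybb was lower (-3.21 ± 0.18). Apol7c, called as higher against both cDC2 classes, was called as lower here, with -0.78 ± 0.30 (adjusted p = 0.0420) in cDC1s relative to mature DCs. This call was lost with DESeq2 (adjusted p = 0.371) and with the study's cell filters (adjusted p = 0.103), and that of Rab43 without cells of more than 1 class (adjusted p = 0.0917) or with RLE size factors (adjusted p = 0.0524). RLE scaling moved the median of all genes in this comparison by -0.11.

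Against macrophages, 4 genes were higher and 1 lower (background 25.1% and 26.6%). The differences were 4.11 ± 0.28 for Clec9a, 3.82 ± 0.34 for Apol7c, 2.85 ± 0.31 for Rab43 and 2.75 ± 0.12 for Wdfy4, and -4.68 ± 0.19 for Cybb. Against B cells, 4 were higher and 1 lower (background 22% and 17%), with 6.23 ± 0.37 for Clec9a, 5.72 ± 0.43 for Apol7c, 1.95 ± 0.12 for Wdfy4 and -3.85 ± 0.19 for Cybb. B cells were part of the lymphoid background, so the sizes for Clec9a and Apol7c depend on a floor there as well. Leaving out 1 sample moved Apol7c against B cells to 6.75 (without sample 1) and 4.83 (without sample 2). Rab43 rested on 6 B cell UMIs there, with a CPM ratio of 7.73 (95% counting interval 3.53 to 21.1). Against the 35 pDCs, 3 were higher and 1 lower (background 11.5% and 8.72%), namely Clec9a (2.64 ± 0.31), Wdfy4 (2.25 ± 0.13), Apol7c and Cybb (-5.05 ± 0.20). Clec9a against pDCs was 2.19 without sample 1 and 3.44 without sample 2. The Apol7c difference from pDCs rested on 3 pDC UMIs, with a CPM ratio of 215 (73.6 to 1043). Rab43 was not called against pDCs (adjusted p = 0.0766, 4 pDC UMIs). Sec22b was not called in any of the 6 comparisons, with adjusted p between 0.293 and 0.759.

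**Figure D2:**
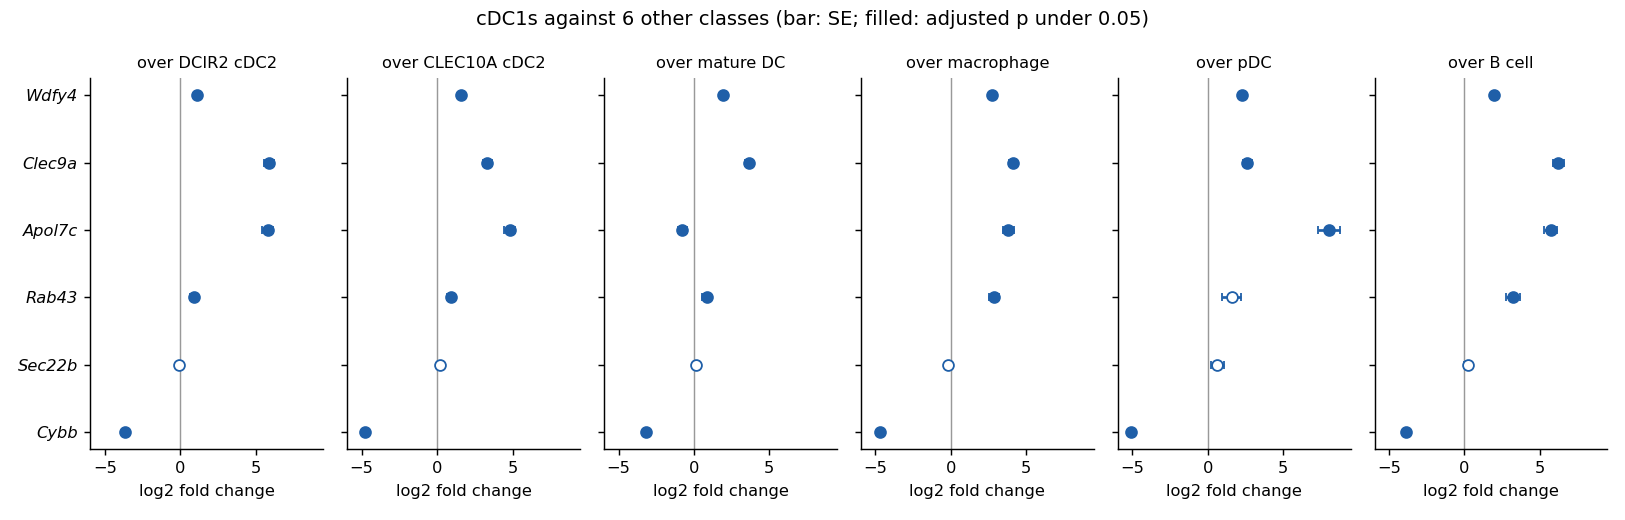
Log2 fold change of each gene in cDC1s over 6 other classes (x axis, 1 panel per class); bars are standard errors and filled points have an adjusted p under 0.05. Clec9a and Wdfy4 were higher and Cybb lower in all panels, Apol7c was lower only against mature DCs (-0.78), and Sec22b was unfilled in all of them.

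Within cDC1s the 6 genes were spread over cells in different ways. Wdfy4 and Clec9a were present in most cells, with 23.6% to 25.7% of their UMIs in the 10% of cells with the highest counts. Apol7c was uneven: 23.0% and 24.1% of cDC1s had no UMI and 22.1% and 17.3% had more than 50, with medians of 16 and 12 and 42.4% and 42.8% of UMIs in the top 10% of cells. cDC1s with Apol7c (611 and 543 cells) had 1551 and 1402 CPM of Clec9a, and those without (182 and 172 cells) had 931 and 902. Cybb was 15.2 and 15.8 CPM in the former and 104 and 60.5 in the latter. These are values of cells chosen by Apol7c itself and were not tested.

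**Figure D3:**
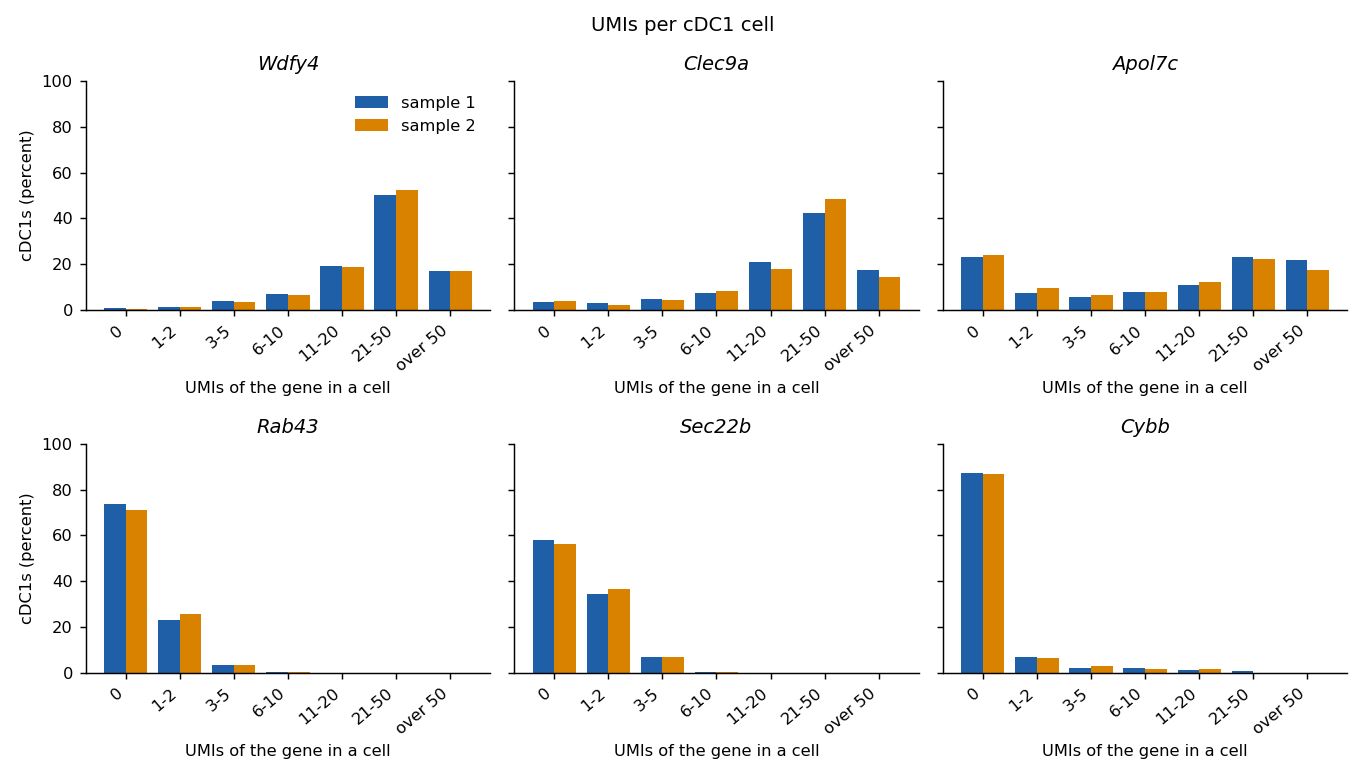
Percent of cDC1s (y axis) by the number of UMIs of each gene in a cell (x axis, bins) in sample 1 and sample 2. Wdfy4 and Clec9a peaked between 21 and 50 UMIs, Apol7c had 23.0% and 24.1% of cells at 0 beside a broad range of positive cells, and most cells had no UMI of Cybb.

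The few Cybb UMIs of cDC1s came from few cells. The top 10% of cDC1s held 95.7% and 94.8% of them. cDC1s that also met the rule of another class had 192 and 187 CPM of Cybb, against 18.4 and 9.45 in the others, and these 61 and 64 cells held 47.6% and 65.4% of the Cybb UMIs of the class. A Cybb UMI was found in 10.6% and 11.1% of cDC1s with Clec9a, but in 75% and 58.6% of the 28 and 29 cDC1s without it. Cells on both sides of the threshold of the cDC1 rule had more Cybb and less Clec9a than all cDC1s. Cells with exactly 2 Xcr1 UMIs (43 and 35 cells) had 441 and 326 CPM of Cybb and 346 and 393 of Clec9a. The cells just outside, with 1 Xcr1 UMI and no class (57 and 47 cells), had 236 and 494 of Cybb and 605 and 394 of Clec9a. Across the threshold itself, the order of Cybb differed between the samples. With a threshold of 4 Xcr1 UMIs the Cybb difference from DCIR2 cDC2s was -4.47, with 1 UMI it was -2.66, and without cells of more than 1 class it was -4.51. Leaving out the latter moved the Cybb differences from CLEC10A cDC2s, mature DCs and macrophages to -5.79, -4.31 and -5.74. Cybb was called as lower in cDC1s with each of these definitions, and its size depended on the cells at the border of the class.

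Across single cDC1s, Clec9a and Cybb had a Pearson correlation of -0.48 and -0.47 in samples 1 and 2 (793 and 715 cells, log scale of depth-scaled counts), Clec9a and Apol7c 0.37 and 0.35, and Wdfy4 and Clec9a 0.30 and 0.41. Rab43 and Sec22b gave values between -0.09 and 0.15 with each other gene of the 6, which in such sparse counts is no finding. Cells of 1 library share depth and preparation, so these values describe the libraries only. Wdfy4, Clec9a and Apol7c were detected together in 75.9% and 74.4% of cDC1s, against 13.6% and 13.4% of mature DCs and 1.80% and 2.61% of DCIR2 cDC2s.

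The study drew attention to cDC1s with Langerin (Cd207), and cDC1s were therefore split by at least 1 Cd207 UMI. This gave 138 and 154 Langerin+ and 655 and 561 Langerin- cells. The labels rest on detection of Cd207 RNA, which was low, at 24.1 and 29.9 CPM in cDC1s. Langerin- cells may thus include cells whose Cd207 RNA was not captured. The study stained Langerin protein in flow cytometry. Langerin+ cDC1s were deeper, with medians of 23504.5 and 26746 UMIs against 19285 and 20313. Of the 6 genes none was higher and 1 was lower, beside 0.559% and 0.473% of 11628 genes. Cybb was 4.11 and 6.16 CPM in Langerin+ and 39.5 and 31.5 in Langerin- cDC1s, a difference of -2.68 ± 0.23 on the log2 scale (adjusted p = 0.00183), and it rested on 14 and 26 UMIs in the Langerin+ cells. Without the cells that met the rule of more than 1 class, an alternative chosen after seeing the data, the difference was -1.75 and was no longer called (adjusted p = 0.148). Such cells made up 2.90% and 6.49% of Langerin+ and 8.70% and 9.63% of Langerin- cDC1s. The summed level of 6 monocyte or neutrophil markers was 19.4 and 28.7 against 207 and 101 CPM. Ccr2, held by 169 and 152 cDC1s, was 1 of these 6 markers, so the sums do not measure RNA of other cells alone. The part of cells of more than 1 class, or of this RNA, in the rest of the difference was not tested.

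The uptake and escape genes did not pass the threshold in this split. Clec9a was 1568 and 1505 CPM against 1396 and 1227 (0.31 ± 0.06, adjusted p = 0.0572), Apol7c 1925 and 1545 against 1403 and 990.4 (0.61 ± 0.15, adjusted p = 0.108), and Wdfy4 1585 and 1571 against 1511 and 1434 (0.18 ± 0.04, adjusted p = 0.106). Both samples had the higher level in Langerin+ cells for each of these 3 genes. With the sample as a block all 3 were called (adjusted p = 6.72e-13, 4.43e-54 and 0.000172), and the calls over all genes went from 120 to 702. In a split, few residual degrees of freedom per gene are left without the block, and still fewer with it. The p-values of both fits therefore rest largely on a spread shared between genes and are no measure of replication. Rab43 (18.8 and 22.0 against 20.1 and 19.3 CPM) and Sec22b (35.5 and 28.9 against 34.0 and 34.0 CPM) were not called with or without the block.

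The split by Ccr2, a chemokine receptor of monocytes and of some DCs, gave larger differences. There were 169 and 152 Ccr2+ and 624 and 563 Ccr2- cDC1s of like depth (20823 and 20464 against 20114 and 21897 UMIs). Of the 6 genes 1 was higher and 4 were lower in Ccr2+ cDC1s, beside 6.44% and 7.02% of 11760 genes. Apol7c was 595 and 380.0 CPM in Ccr2+ and 1790.2 and 1333 in Ccr2- cDC1s (-1.77 ± 0.19, adjusted p = 0.000544), with 43.2% and 44.1% against 86.2% and 84.5% of cells positive. The median Ccr2+ cDC1 had no Apol7c UMI in either sample, and the median Ccr2- cDC1 had 23 and 18. Clec9a was 1079 and 1065 against 1539 and 1361 CPM (-0.53 ± 0.06, adjusted p = 0.000746). Rab43 (16.4 and 12.7 against 20.9 and 21.9 CPM, -0.65 ± 0.18, adjusted p = 0.0439) and Wdfy4 (1447 and 1436 against 1550.2 and 1479 CPM, -0.17 ± 0.04, adjusted p = 0.0393) were close to the threshold.

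Cybb was higher in Ccr2+ cDC1s, at 75.8 and 32.5 against 19.0 and 23.0 CPM (1.29 ± 0.30, adjusted p = 0.0233). Sample 1 set most of this difference, which was 0.40 without it and 1.91 without sample 2, and the call was lost without cells of more than 1 class (adjusted p = 0.0896). Ccr2+ cDC1s of sample 1 also had the most monocyte or neutrophil RNA, with 394 CPM summed over 5 markers against 35.4 in sample 2 and 8.86 and 12.4 in Ccr2- cDC1s, and the CLEC10A cDC2 markers summed to 587 and 374 against 277 and 237 CPM. Whether cells of these kinds carried the Cybb was not tested. Apol7c was called without the cells of more than 1 class as well (-1.68, adjusted p = 0.000453). Sec22b was called with the sample as a block (-0.39, adjusted p = 0.0468 against 0.0862 without it), which raised the calls over all genes from 1582 to 2638.

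Cycling cDC1s (301 and 281 cells with an Mki67 or Top2a UMI) were set against 492 and 434 other cDC1s. Their median depth was 23465 and 25121 against 18073 and 20032 UMIs. Of the 6 genes none was higher and 2 were lower, beside 11.6% and 7.67% of 11709 genes. Macrophage markers (8) summed to 54.1 and 72.8 against 195 and 156 CPM. Monocyte or neutrophil markers (6, Ccr2 among them) summed to 281 and 105 against 75.1 and 62.3. The cDC1 markers (10) summed to 8051 and 8241 against 8672 and 8889. Cells that met more than 1 class rule made up 11.3% and 9.25% against 5.49% and 8.76%. The part of either in the result was not tested. Clec9a was 1158 and 1052 against 1657 and 1509 CPM (-0.57 ± 0.06, adjusted p = 0.000168) and Wdfy4 1463 and 1338.5 against 1578 and 1581 (-0.22 ± 0.05, adjusted p = 0.0102). Both calls remained without cells of more than 1 class, an alternative chosen after seeing the data (-0.55, adjusted p = 0.000255, and -0.21, adjusted p = 0.0146). Apol7c was 1283 and 977 against 1698 and 1268 CPM, a difference of -0.44 ± 0.14 that was not called (adjusted p = 0.0615) but was with the sample as a block (adjusted p = 8.63e-08) and when 2 UMIs defined a cycling cell (-0.70, adjusted p = 0.00476). The block also gave a call for Rab43 at -0.41 ± 0.13 (adjusted p = 0.0472 against 0.0657). Cybb and Sec22b were not called.

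Mature DCs can stem from more than 1 lineage, and Xcr1 was used to mark those with the cDC1 receptor. Only 11 and 23 mature DCs had an Xcr1 UMI, against 136 and 164 without, and they were deeper (20925 and 16615 against 9595 and 10395.5 UMIs). Of the 6 genes 2 were higher and 1 was lower, beside 1.3% and 0.869% of 8286 genes. Clec9a was 501 and 373 CPM in Xcr1+ and 49.4 and 49.8 in Xcr1- mature DCs (3.29 ± 0.24, adjusted p = 0.000655). A single Xcr1+ cell of sample 1 held 65 of its 120 Clec9a UMIs, and the median was 3 in both samples. The 10 cDC1 markers summed to 3208 and 2536 against 523 and 641 CPM, and their part in these differences was not tested. Apol7c was 3133 and 4641 against 2277 and 1809 CPM (1.10 ± 0.21, adjusted p = 0.0354) and Cybb 117 and 111 against 312 and 316 (-1.30 ± 0.22, adjusted p = 0.0216). The last 2 calls were lost with the sample as a block (adjusted p = 0.224 and 0.152), which left 15 of 180 calls over all genes. Mature DCs with 2 or more Xcr1 UMIs (9 and 14 cells) also meet the cDC1 rule, and 9 of 11 and 15 of 23 Xcr1+ mature DCs met more than 1 rule. In CPM, Apol7c in Xcr1- mature DCs was still above both samples of every other class, cDC1s included.

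Apol7c was also uneven among mature DCs, with 39.5% and 35.8% of cells at 0. Mature DCs with a UMI of Il12b or Ccl22, a cytokine and a chemokine of activated DCs, were 41 and 61 cells and had 4908 and 4627 CPM of Apol7c. The other 106 and 126 had 1327 and 1085. Cybb was 231 and 122 CPM in the former and 307 and 363 in the latter. These values were not tested.

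**Figure D4:**
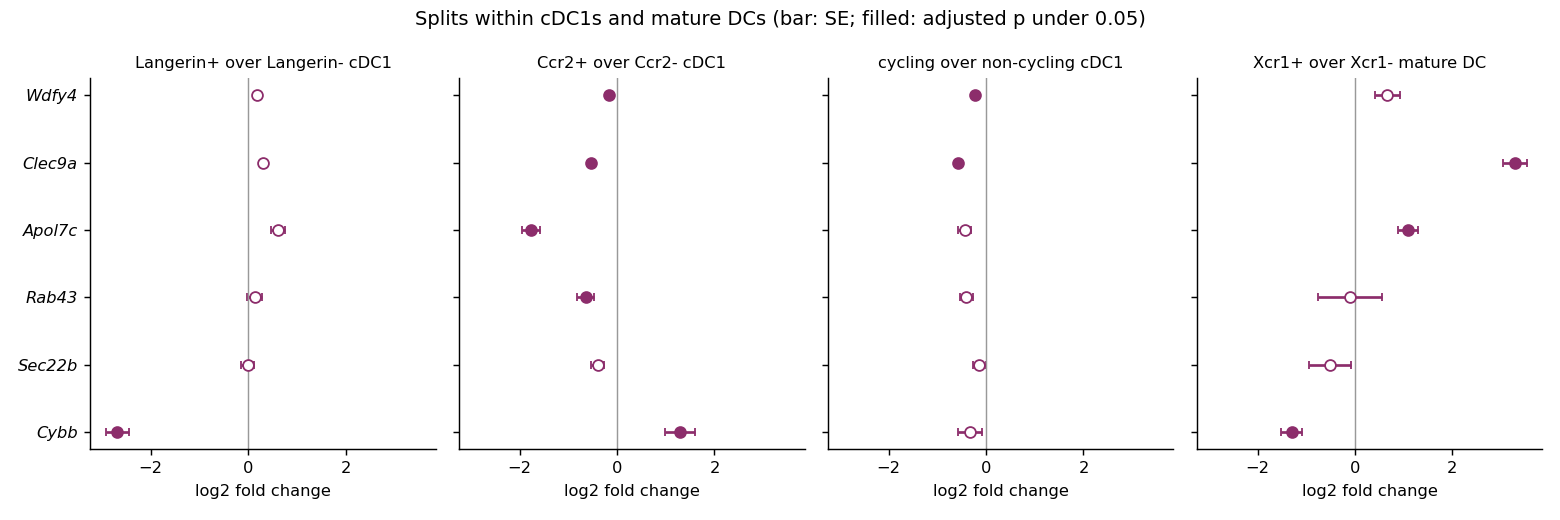
Log2 fold change of each gene (x axis) in 4 splits of cDC1s or mature DCs, 1 panel per split; bars are standard errors and filled points have an adjusted p under 0.05. Cybb was lower in Langerin+ cDC1s (-2.68), Apol7c lower in Ccr2+ cDC1s (-1.77), and Clec9a higher in Xcr1+ mature DCs (3.29).

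A list of genes of the oxidase was compared in the same way. It includes Cybb, which is counted among the lower genes in each of the comparisons below. Of 11 NOX2 genes and regulators tested, 6 were lower in cDC1s than in DCIR2 cDC2s, 1 was higher and 4 were not called, beside 16.6% lower and 16.1% higher of all genes, with a median of -0.42 against -0.0076. Hvcn1, the proton channel that sustains oxidase activity, was 3.18 and 6.90 CPM in cDC1s and 51.8 and 52.3 in DCIR2 cDC2s (-3.20 ± 0.24, adjusted p = 1.86e-09). Syk, a kinase downstream of Fc and C-type lectin receptors, was 103 and 94.8 against 280.2 and 262 CPM (-1.29 ± 0.12, adjusted p = 3.75e-08). Cyba, Ncf1 and Rac2 were lower too. Vav1, a guanine nucleotide exchange factor for Rac, was the gene that was higher (0.38 ± 0.13, adjusted p = 0.0285). Against CLEC10A cDC2s 4 of the 11 were lower and 1 was higher (all genes 15.9% and 14.6%), the latter Ncf4, with Cyba and Ncf1 not called. Against mature DCs 5 were lower and 4 higher (20.1% and 21.6%), the latter Ncf4, Rac1, Rac2 and Vav1. Against macrophages 6 were lower and 3 higher (26.6% and 25.1%), the latter Ncf1, Ncf4 and Rab27a. Against pDCs 3 were lower and 2 higher, Ncf4 and Rac1 (8.72% and 11.5%), and against B cells 4 were lower and 3 higher, Cyba, Rab27a and Rac1 (17% and 22%). Cybb, Hvcn1 and Syk were lower in all 6 comparisons.

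A list of 18 genes of the MHC class I pathway held genes of peptide loading, of the proteasome and others. Of these, 12 were higher in cDC1s than in DCIR2 cDC2s and 1 was lower, beside 16.1% and 16.6% of all genes, with a median of 0.82. Pdia3, a chaperone of the loading complex, was 595 and 632 CPM against 267 and 248 (1.41 ± 0.12, adjusted p = 9.8e-09). Psmb9, an immunoproteasome subunit (1.27 ± 0.12), and Tap2, a chain of the peptide transporter (1.20 ± 0.13), followed. Lnpep, which encodes the endosomal aminopeptidase IRAP, was the lower one (-0.64 ± 0.13, adjusted p = 0.000686). The counts were again 12 higher and 1 lower against CLEC10A cDC2s (all genes 14.6% and 15.9%). Against mature DCs the list was divided, with 6 higher and 7 lower (21.6% and 20.1%) and a median of -0.05, and among the lower ones were H2-K1, H2-D1 and B2m. It was also divided against macrophages, with 8 higher and 6 lower (25.1% and 26.6%) and a median of -0.01.

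**Figure D5:**
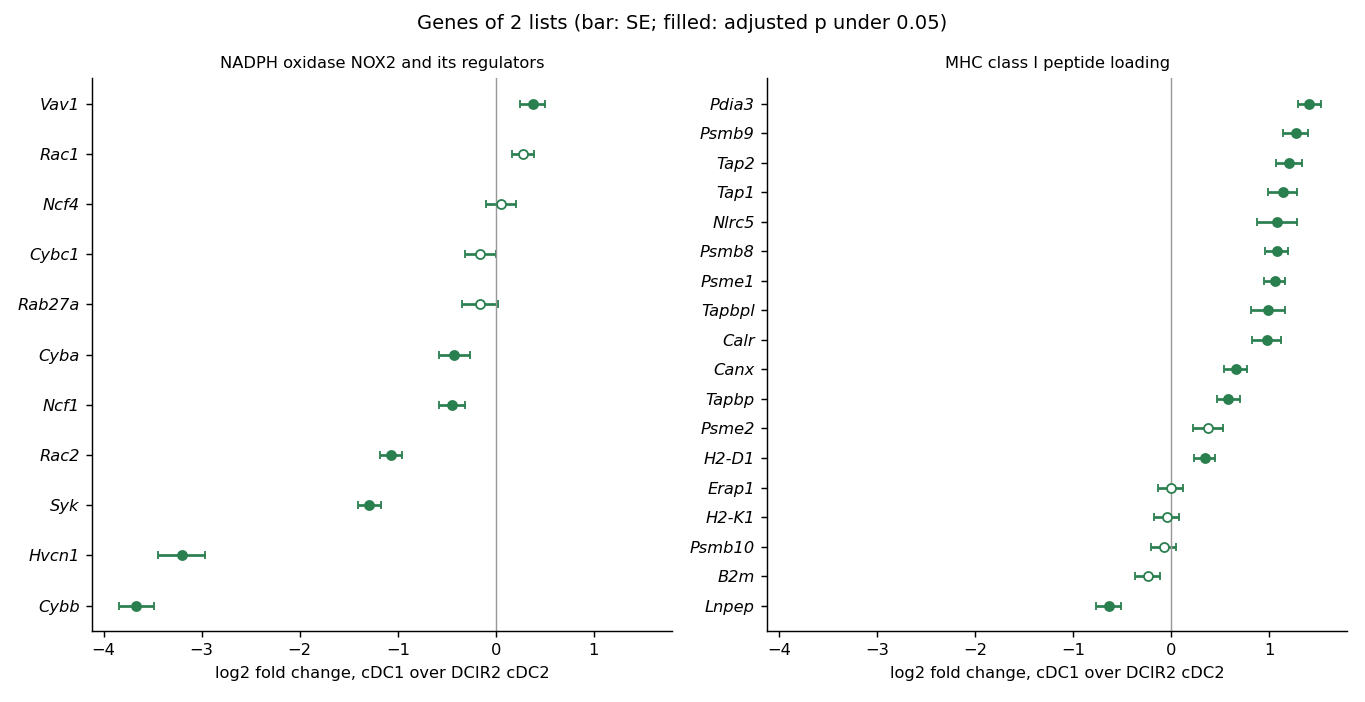
Log2 fold change in cDC1s over DCIR2 cDC2s (x axis) of the tested NOX2 genes and of the MHC class I pathway genes (rows). Bars are standard errors and filled points have an adjusted p under 0.05. Of the NOX2 genes 6 of 11 were lower, with Cybb lowest, and of the MHC class I pathway genes 12 of 18 were higher.

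The families of the other genes were described in the same way against DCIR2 cDC2s, where 16.1% of all genes were higher and 16.6% lower. Of 8 Rab GTPases tested 4 were higher and none was lower (median 0.54), namely Rab43, Rab39 (1.65 ± 0.20), Rab11a of recycling endosomes (1.47 ± 0.15) and Rab10 (0.92 ± 0.11). The same 4 genes were higher against CLEC10A cDC2s, with none lower (all genes 14.6% and 15.9%). They were also higher against mature DCs, where Rab22a was lower (all genes 21.6% and 20.1%). Against macrophages 3 were higher (Rab11a, Rab27a and Rab43) and 3 lower (Rab14, Rab22a and Rab34), beside 25.1% and 26.6% of all genes. Of 12 listed genes of the Sec22b pathway, mostly SNAREs and ER-Golgi carriers, 10 were not called against DCIR2 cDC2s (median 0.14). Most genes were not called there, since 3998 of 12209 were, so this count was not read as a trait of the list. Lman1, a cargo receptor, was higher (0.55 ± 0.18) and Ikbkb, a kinase, was lower (-0.48 ± 0.11). Of 9 genes of endosomal escape and ER translocation 7 were higher, Apol7c among them, and none lower (median 0.62). Mpeg1, which encodes the pore protein perforin-2, was 1966 and 1947 CPM against 72.4 and 67.2 (4.97 ± 0.30, adjusted p = 9.12e-11). Sec61g, a subunit of the ER translocon, differed by 0.96 ± 0.13. Macrophages had 1490 and 1499 CPM of Mpeg1, much nearer to cDC1s.

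Of the 13 apolipoprotein L genes only 3 had enough counts to be tested, and Apol7c and Apol10b were higher in cDC1s than in DCIR2 cDC2s. Apol7a had 0.24 and 0 CPM in cDC1s and Apol7b 0.30 and 0.18, and the level of Gm8221, which shares the most sequence with Apol7c, was not analysed here. Of 11 BEACH domain and other Wdfy genes 3 were higher and 2 lower (median 0.19), beside 16.1% and 16.6% of all genes. Beside Wdfy4, Wdfy3, an adaptor of selective autophagy (1.42 ± 0.20), and Wdfy1 (0.99 ± 0.23) were higher. In macrophages, however, Wdfy3 was 375 and 336 CPM, against 71.2 and 62.7 in cDC1s. Lyst, the gene of lysosomal trafficking mutated in beige mice, was 205 and 181 CPM against 810.5 and 724 in DCIR2 cDC2s (-1.83 ± 0.15). Lrba was lower as well (-0.50 ± 0.19, adjusted p = 0.0465). Of 13 uptake receptors 7 were higher, Clec9a among them, and 3 lower (median 0.95), beside the same shares. Against CLEC10A cDC2s 6 were higher and 6 lower (median 0.18, all genes 14.6% and 15.9%). Against macrophages 6 were higher and 6 lower (median -1.03, all genes 25.1% and 26.6%). Against mature DCs the counts were 6 and 3, against pDCs 6 and 2, and against B cells 8 and 1. The shares of all genes there were 21.6% and 20.1%, 11.5% and 8.72%, and 22% and 17%. Cd36, a scavenger receptor, was 451 and 425 CPM in cDC1s against 4.69 and 4.62 in DCIR2 cDC2s (6.71 ± 0.36). In the same classes Cd207 was 24.1 and 29.9 against 0 and 0.17 CPM. Fcer1g, the signalling chain of Fc receptors, was 98.4 and 92.2 against 919 and 877 CPM (-3.07 ± 0.19).

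Of 8 transcription factors of the cDC lineages, 3 were higher and 2 lower in cDC1s than in DCIR2 cDC2s (median 0.37), beside 16.1% and 16.6% of all genes. Irf8, the factor that specifies cDC1s, was higher by 6.78 ± 0.21, Id2 by 1.90 ± 0.21 and Batf3 by 0.68 ± 0.14, while Irf4 (-3.61 ± 0.21) and Zeb2 (-3.03 ± 0.19), which favour other DC and myeloid fates, were lower. In the splits, Zeb2 (-1.28 ± 0.22, adjusted p = 0.0315) and Fcer1g (-1.14 ± 0.10, adjusted p = 0.00183) were lower beside Cybb in Langerin+ cDC1s. Cd207 was lower beside Apol7c in Ccr2+ cDC1s (-2.47 ± 0.21, adjusted p = 0.000187). Cycling cDC1s had less Clec4n (-2.21 ± 0.49, adjusted p = 0.0148) and Axl (-1.52 ± 0.41, adjusted p = 0.0309) and more Hsp90aa1, a chaperone (0.89 ± 0.05, adjusted p = 5.59e-06). Xcr1+ mature DCs had more Cd36 (3.49 ± 0.40) and Mpeg1 (2.57 ± 0.19) beside Clec9a. The NOX2 list as a whole did not follow Cybb in the Langerin split, with 1 of 11 genes lower, a median of 0.024 and no other gene called.

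The genes most like each of the 6 were taken from the levels over 9 classes and 2 samples (18 values, of which those of 1 class are not independent). For Wdfy4 the nearest was Pkib, a protein kinase inhibitor (Pearson r = 0.93), followed by Serpinb2, Sh3tc1, Lrrc40 and Col23a1 (0.89 to 0.86). For Clec9a they were Sh3pxd2b (0.93), Gusb, a lysosomal glucuronidase, the cDC1 marker Naaa, Serpinf1 and P2ry14 (0.88 to 0.84). For Apol7c they were the cytokine gene Il33 (0.94), Laptm4b, Arpin, Ttc39a and C9orf72 (0.93 to 0.91). Slk was nearest to Rab43 (0.94), before Prr5l, Dock5, Atp5l and Gpr4, and Faap20 to Sec22b (0.91), before Hist1h4d, Csnk1g2, Apeh and Dnaja3. For Cybb, 5430427O19Rik (0.92) and Dclre1c (0.92) led, with Rgl1, Abi3 and Rnf13 (0.88 to 0.87). Among the 6 genes themselves, Wdfy4 and Rab43 were the most alike (0.70) and Sec22b and Cybb the least (-0.46).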

How the data were processed

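Splenic CD11c+ cells were enriched with magnetic beads and profiled with BD Rhapsody whole-transcriptome chemistry. Other mice tagged in the same capture are not analysed here. The authors deposited UMI counts per gene and cell without normalization, made with the BD Rhapsody pipeline 1.12.1 on GRCm38 and GENCODE vM19 with intronic reads counted, and the submitters' notes name R 4.2.3 and Seurat 4.3.0.1. All cells of both tables (3308 and 3085) entered, since the study's filters, which leave 5653 cells, were an alternative. The sources used here do not state how strand entered the counting.

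Classes were assigned by UMIs, first match: macrophage (Vcam1 at least 20 and C1qb at least 5), mature DC (Ccr7 2, Fscn1 1), cDC1 (Xcr1 2), pDC (Siglech 3, Ccr9 1), B cell (Cd79a 3), T cell (Cd3e 2), NK cell (Ncr1 1), DCIR2 cDC2 (Clec4a4 2), CLEC10A cDC2 (Clec10a plus Cd209a 2). Counts were summed per sample and class, and CPM are UMIs per 1000000 of that sum. The quasi-likelihood test of edgeR 4.0.16 (R 4.3.3, TMM, filterByExpr, genes of the rule left out) was fitted to 9 classes and 2 samples at once, and to each split alone, with Benjamini-Hochberg adjustment over all genes, a two-sided threshold of 0.05 and standard errors derived from the F statistic. Same-numbered sums come from the same sample, so the sample number pairs the groups, and the fit with it as a block is given where it changes a call. The p-values measure only the spread between these 2 samples, which may be technical. In the splits they rest largely on a spread shared between genes. Intervals of shares and CPM ratios cover counting error only, and those of fold changes come from the edgeR standard errors. The scripts were tested on simulated data first. Alternatives were RLE size factors, DESeq2 1.42.0, no filter on low counts, the block, other thresholds, the study's filters and leaving out a replicate.

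The genes, lists and splits were chosen with earlier results of these data known. Named beside the 6 genes were, from each list, up to 3 genes per direction with the largest change among those called over DCIR2 cDC2s at 20 CPM or more, up to 3 list genes per split, the 5 nearest genes by Pearson correlation of log2(CPM + 10), and copies of the 6. Apol10b, Apol7a, Apol7b, the other NOX2, Rab and MHC genes named in counts, and Il12b and Ccl22 were named after their values were seen. A gene of the NOX2 list is not reported here and was left out of the counts and median of that list.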

Additional observations from a re-analysis of the deposited data

How the results depend on the processing

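Of 483 fold changes of the 6 genes recomputed under alternatives, 446 kept their direction and their side of the threshold, 24 lost the call, 11 gained it and 2 changed sign, both never called: Sec22b in cDC1s over DCIR2 cDC2s (0.0049) and Rab43 in Xcr1+ mature DCs (0.38), each with the study's cell filters. The number of genes called moved by over 1.5 times as follows. Cells of 2 classes alone gave 5616 for cDC1s over CLEC10A cDC2s (3720 in the joint fit). For Langerin+ cDC1s (120) there were 522 with no filter on low counts, 702 with the replicate block and 54 without cells of more than 1 class. For Ccr2+ cDC1s (1582) there were 981 with DESeq2, 2638 with the replicate block and 0 in edgeR with no filter, where 3224 genes had an unadjusted p under 0.05. For cycling cDC1s (2255) there were 1423 with DESeq2, 1376 with no filter and 1018 with the study's filters. For Xcr1+ mature DCs (180) there were 556 with no filter and 15 with the replicate block. The cause was not tested. The block changed no other call of the 6 genes than those given above. Without the filter the calls of Wdfy4, Clec9a, Apol7c, Rab43 and Cybb in Ccr2+ cDC1s were lost, and those of Wdfy4 and Rab43 there were also lost with DESeq2 (adjusted p = 0.117 and 0.188) and the study's filters (0.239 and 0.104). Leaving out 1 of 2 replicates leaves no test. Of 113 such fold changes of the 6 genes, 39 moved by more than the standard error of the main fit and 74 did not. The low counts of Rab43 and Sec22b and the 35 pDCs limit what could be detected.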
